A study of Mus musculus with 2 samples.

Results

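The heat shock proteins and the folding enzymes of the endoplasmic reticulum (ER) were read from 2 Affymetrix mouse genome arrays, 1 of white adipose tissue (WAT) from transgenic (Tg) mice with perilipin A (PeriA), a coat protein of lipid droplets, and 1 of WAT from wild-type (WT) mice. The rule that defines the members uses gene symbols and no measured value: the families *Dnaja*, *Dnajb*, *Dnajc*, *Hspa*, *Hspb*, *Hsph*, *Pdia* and *Hsf* followed by a number, *Hsp90*, and 13 named genes of ER folding and of its stress response. This gave 90 of the 18193 genes with a probe set annotated to 1 symbol alone. *Ero1l* and *Ero1lb* are listed in the annotation under their current names, *Ero1a* and *Ero1b*. *Hsf2bp*, a binding partner of a heat shock factor and not a factor itself, enters through its name. *Dnajc19* shares its 3 probe sets with a pseudogene and is not a member, and *Hsp90ab1* and *Hsf1* were not analysed here.

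Both groups were female mice on the C57BL/6 background, 30 weeks old and fed a high-fat diet, and the tissue was perigonadal WAT taken after an overnight fast. The Tg mice were heterozygous for human PeriA under the aP2 promoter/enhancer, which is active in adipocytes, and the WT mice were littermates without the transgene. RNA of 3 mice of each genotype was pooled and the pool hybridised to 1 array. There are therefore no replicates, no error over mice and no test, and every difference below compares 1 pool with the other. Of 12 adipocyte markers 11 were measured, all 11 passed the signal filter described below, and their median signal log ratio was 0.09. Past the thresholds of 0.3 and -0.3, also described below, were *Pparg* at 0.57, *Lipe* at 0.53 and *Lep* at -0.64. These shares were 18.2% over and 9.09% under, against 16.6% and 16.9% of all genes. Adiponectin (*Adipoq*) had 41052 in WT against 43803 in Tg. The human transgene was not analysed here. WAT holds many cell types, and with bulk RNA fewer cells of one type and less RNA per cell cannot be told apart.

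Chaperones bind unfolded stretches of other proteins and let them fold or refold. Hsp70 proteins do this in cycles of ATP hydrolysis that J proteins start and choose the client for, Hsp110 proteins exchange the nucleotide, Hsp90 proteins act late on nearly folded clients, and small heat shock proteins hold unfolded proteins without ATP. Heat and other stresses of the cytosol act through heat shock factors, which bind repeats of the letters GAA in alternating direction, the heat shock element. In the ER, Hspa5 (BiP) and the protein disulfide isomerases fold secreted proteins, and unfolded protein there activates the sensors IRE1 (*Ern1*), ATF6 (*Atf6*) and PERK (*Eif2ak3*), together called the unfolded protein response (UPR). ATF6 and the spliced form of XBP1 raise ER chaperone genes through the ER stress response element (ERSE). Adipocytes secrete adipokines in large amounts, and obesity is known to load both systems.

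Promoter sequences are shown first because they hold a feature that several ER members share. RefSeq (build GRCm38.p6) gave windows from 250 bases before to 50 bases after the gene start for 73 of the 90 members. Each window was searched on both strands for ERSE, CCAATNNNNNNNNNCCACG, and for ERSE-II, ATTGGNCCACG. Both motifs share the letters CCACG, and no member held both. ERSE was in windows of 6 members, 8.22% of the 73, against 0.137% of all 27025 genes with a window. ERSE-II was in windows of *Dnajb11* and *Herpud1*, against 0.0444% of all genes. The sites are written 5′ to 3′ on the strand of the gene, with 20 bases on each side, and capitals mark the motif in either direction.
Hspa5, chr2:34772005-34772063, + strand, from 65 bases before the start: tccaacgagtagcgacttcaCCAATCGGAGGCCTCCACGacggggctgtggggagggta
Hsp90b1, chr10:86705618-86705676, - strand, from 212 bases before the start: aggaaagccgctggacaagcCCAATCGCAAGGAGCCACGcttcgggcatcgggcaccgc
Hsp90b1, chr10:86705513-86705571, - strand, from 107 bases before the start: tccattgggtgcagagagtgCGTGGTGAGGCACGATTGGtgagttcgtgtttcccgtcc
Pdia6, chr12:17266471-17266529, + strand, from 98 bases before the start: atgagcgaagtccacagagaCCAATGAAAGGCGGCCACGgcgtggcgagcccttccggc
Dnajc3, chr14:118937807-118937865, + strand, from 105 bases before the start: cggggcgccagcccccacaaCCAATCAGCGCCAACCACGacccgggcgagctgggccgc
Creld2, chr15:88819500-88819558, + strand, from 126 bases before the start: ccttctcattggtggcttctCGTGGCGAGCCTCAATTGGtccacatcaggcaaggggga
Ero1b, chr13:12565662-12565720, + strand, from 201 bases before the start: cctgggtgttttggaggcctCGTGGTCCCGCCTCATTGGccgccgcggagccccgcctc
Herpud1 (ERSE-II), chr8:94386357-94386407, + strand, from 52 bases before the start: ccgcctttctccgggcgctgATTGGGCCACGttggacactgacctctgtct

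The heat shock element was searched as 2 adjoining units, GAANNTTC or TTCNNGAA, and as 3 units in alternating direction, which contain it. The 3-unit form was in windows of *Dnajb6* and *Hsph1*, 2.74% of the 73 members, against 0.662% of all genes. The 2-unit form was in windows of 16 members, 21.9% of the 73, and in windows of 17.0% of all genes, so that this short form is common. The sites in *Hspa1a*, *Hspa1b*, *Hspb1*, *Dnaja1* and *Hsph1* are shown as those of heat-inducible genes, which include the neighbours *Hspa1a* and *Hspa1b*, whose printed stretches are the same letter for letter, that of *Dnajb6* as a 3-unit site, and those of *Dnaja4* and *Hspb6* because these genes had lower signals on the Tg array. Where a gene held several sites, the one farthest before the start is given. *Dnajb6* and *Hsph1* have more than 1 annotated start, and positions are from the nearest. The 3-unit site of *Hsph1* lies after its start and is not shown.
Hspa1a, chr17:34972233-34972280, - strand, from 104 bases before the start: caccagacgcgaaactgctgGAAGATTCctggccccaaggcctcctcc
Hspa1b, chr17:34959315-34959362, - strand, from 104 bases before the start: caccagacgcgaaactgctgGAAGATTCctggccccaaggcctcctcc
Hspb1, chr5:135887782-135887829, + strand, from 117 bases before the start: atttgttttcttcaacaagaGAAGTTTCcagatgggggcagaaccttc
Dnaja1, chr4:40722324-40722371, + strand, from 124 bases before the start: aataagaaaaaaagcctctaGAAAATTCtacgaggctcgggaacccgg
Hsph1, chr5:149636342-149636389, - strand, from 33 bases before the start: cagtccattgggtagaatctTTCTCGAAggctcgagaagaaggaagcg
Dnajb6 (3 units), chr5:29735832-29735884, + strand, from 46 bases before the start: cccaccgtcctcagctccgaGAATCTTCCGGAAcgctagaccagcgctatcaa
Dnaja4, chr9:54699449-54699496, + strand, from 90 bases before the start: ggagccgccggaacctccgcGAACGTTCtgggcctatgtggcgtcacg
Hspb6, chr7:30553161-30553208, + strand, from 120 bases before the start: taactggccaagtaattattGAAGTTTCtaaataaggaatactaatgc

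Most members had nearly the same signal on both arrays. Values are the signals that the authors deposited on a linear scale, each array having been scaled as a whole, and the signal log ratio is log2 (Signal of Tg/Signal of WT), with 0.3 and -0.3 as thresholds as in the methods. A gene was read from its probe set with the highest mean log2 signal and passed the filter when at least 1 array reached 98.2, the median of all signals. Of the 90 members, 76 passed, and all 76 were above this level on both arrays, as were 10850 of the 11587 genes of the series that passed. Their median was 0.04, against 0.02 for all 11587 genes that passed. Over 0.3 were 10 members, 13.2%, against 16.6% of all genes, and under -0.3 were 11 members, 14.5%, against 16.9% of all genes. Among the genes above the filter on both arrays the shares were 15.4% and 14.6%. No member was over 1, against 1.02% of all genes, and 1 was under -1, *Hspb7*, against 1.87%. These shares are near or below the background and are no result about the members. Of the genes past either threshold, 49.6% were over 0.3, and 65.6% when the arrays were scaled to the same median signal. That scaling was added once the values were known, and under it the median of all genes was 0.11. With it 19 members were over 0.3, against 24.9% of all genes, and 10 under -0.3, against 13%.

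**Figure D1:**
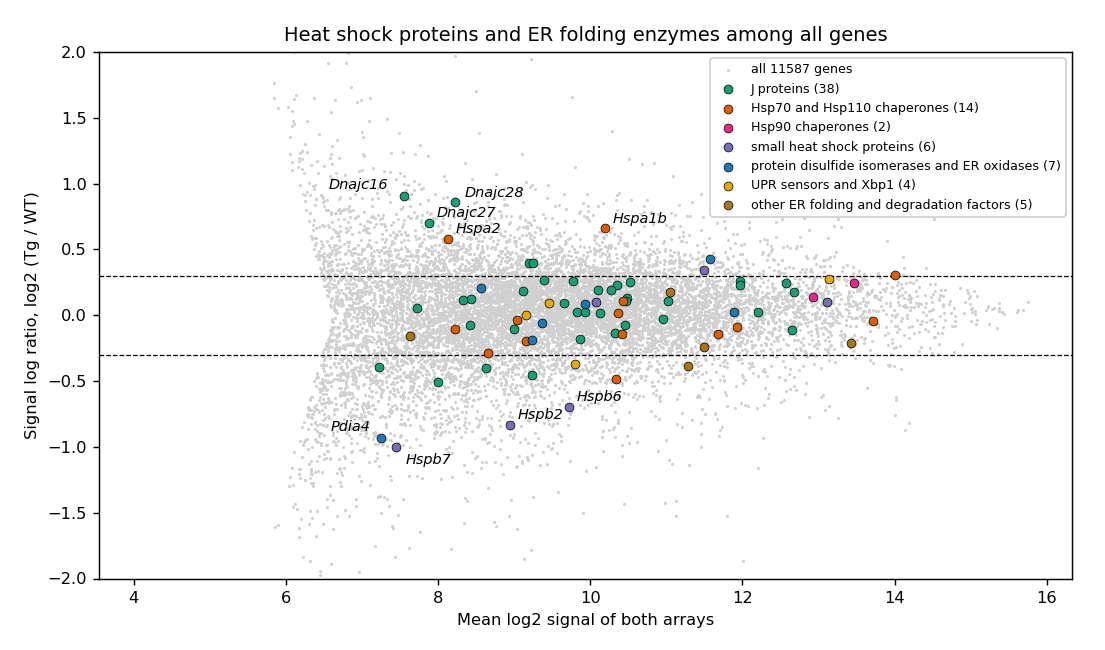
Signal log ratio, log2 (Tg/WT), plotted over the mean log2 signal, for the 76 members that passed the filter (coloured by role, with the number of each) and for all 11587 genes (grey). Dashed lines mark 0.3 and -0.3, 47 grey genes beyond 2 or -2 are not drawn, and most members lie between the dashed lines at all signals.

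The spread of the members depended on the signal as it did for all genes. Among the 19 members with a mean log2 signal under 9, 4 were over 0.3 (21.1%, against 21.0% of all genes in that range) and 6 under -0.3 (31.6% against 25.7%). Among the 35 members from 9 to 11, 3 were over (8.57% against 14.3%) and 4 under (11.4% against 11.7%). Among the 22 members at 11 and over, 3 were over (13.6% against 11.5%) and 1 was under (4.55% against 7.68%), and their median was 0.12, against 0.05 for all genes in that range. Probe sets of one gene also differed: in the 48 members with 2 or more probe sets past the filter, readings of the same gene had a pooled SD of 0.32, more than the threshold itself. This SD describes readings of the same pools. The second-brightest probe set was lower than the brightest in 24 of the 48, with a median difference of -0.02.

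A list of 9 cytosolic chaperones held heat-inducible genes but also the constitutive *Hspa8*. It had 8 measured members, of which 7 were over 0, against 53.2% of all genes. Over 0.3 were 2 of the 8, *Hspa1b* and *Hspa8*, against 16.6% of all genes. Under -0.3 were 0, against 16.9%, and the median was 0.18. The count over 0 was 7 of 8 under each scaling of the arrays that was run, 6 of 8 on the median over probe sets, 5 of 7 on the second-brightest and 4 of 6 without probe sets that carry a suffix for shared transcripts. *Hspa8*, the constitutive Hsp70 of the cytosol (Hsc70), had 14806 in WT against 18291 in Tg (0.31). Its other 3 passing probe sets had 0.07, 0.33 and -0.11, so that the place of *Hspa8* over 0.3 depends on the probe set read. *Hsp90aa1*, the inducible cytosolic Hsp90, had 10442 in WT against 12365 in Tg (0.24), and its other passing probe sets had 0.33 and 0.23. All 3 readings were higher in Tg by a similar amount. *Dnaja1* and *Dnajb1*, J proteins that serve Hsp70 in the cytosol, had 0.17 and 0.19. The other probe sets of *Dnaja1* had 0.18 and 0.21, but that of *Dnajb1* had -0.16. *Hsph1*, the inducible Hsp110, had 1326 in WT against 1431 in Tg (0.11), but -0.16 on its other probe set. *Hspb1* (Hsp25), the small heat shock protein of most tissues, had 8581 in WT against 9191 in Tg (0.10), and 0.15 on its other probe set.

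The inducible Hsp70 genes *Hspa1a* and *Hspa1b* encode nearly the same protein and lie on chromosome 17, at chr17:34969359-34972156 and chr17:34956429-34959238, so that RNA of one can bind probes of the other. *Hspa1b* had 934 in WT against 1478 in Tg (0.66), the highest of the Hsp70 genes. Its other probe sets had 937 in WT against 1045 in Tg (0.16), and 657 in WT against 799 in Tg (0.28). All 3 were higher in Tg, 1 of them past the threshold. The only probe set of *Hspa1a* had 311 in WT against 288 in Tg (-0.11). Immediate early genes, which rise with *Hspa1a* and *Hspa1b* when tissue is handled, were read beside them. Of 14 such genes 13 passed the filter, and 4 of the 13 were over 0, against 53.2% of all genes. Over 0.3 were 3, 23.1% against 16.6% of all genes, and under -0.3 were 4, 30.8% against 16.9%. The median was -0.06, and *Fos* had 2003 in WT against 1107 in Tg (-0.86). The lowest was *Egr2* at -1.65, and the highest were *Ier3* at 0.59 and *Jun* at 0.40. The part of handling in the signals of *Hspa1a* and *Hspa1b* was not tested.

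Of the 14 Hsp70 and Hsp110 genes that passed, 3 were over 0.3, *Hspa1b*, *Hspa2* and *Hspa8*, and 1 was under -0.3, *Hspa12a*, with a median of -0.07. Their shares were 21.4% and 7.14%, against 16.6% and 16.9% of all genes. *Hspa2*, an Hsp70 best known from testis, had 229 in WT against 343 in Tg on its only probe set (0.58). *Hspa12a*, an atypical Hsp70, had 1530 in WT against 1095 in Tg (-0.48), and its other passing probe sets had -0.45 and -0.37. It was thus lower in Tg by all 3 readings, and its relative *Hspa12b*, known from endothelium, had 445 in WT against 366 in Tg (-0.28). *Hspa4*, an Hsp110 of the cytosol, had 3453 in WT against 3136 in Tg (-0.14) on its brightest probe set, but 0.25 and 0.47 on others above the filter on both arrays. *Hspa14*, which acts at the ribosome, had -0.14 on the brightest and 0.83 on the other. *Hspa4l* had -0.20, with others from -0.11 to 0.20. *Hspa9* (mortalin), the Hsp70 of mitochondria, had 4027 in WT against 3778 in Tg (-0.09), and its other passing probe sets had 0.38, 0.35 and -1.28, on both sides of the threshold. *Hspa1l* was below the filter.

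Most ER lumen proteins had similar signals on both arrays when read from their brightest probe sets. Of 20 members in a list of such proteins, 19 passed. Over 0.3 was 1, against 16.6% of all genes, 2 were under -0.3, against 16.9%, and 16 lay between, 84.2% against 66.4% of all genes. These shares were not matched for signal, and most of the 19 had a mean log2 signal of 9 or more. From 9 to 11, 14.3% of all genes were over 0.3 and 11.7% under -0.3. At 11 and over, the shares were 11.5% and 7.68%. The median was -0.03, or 0.05 with the arrays at equal median signal. On second-brightest probe sets 5 of 10 were under -0.3, against 25.8% of all genes read that way, and the median was -0.26. *Hspa5*, the Hsp70 of the ER and a standard readout of the UPR, had 13721 in WT against 13308 in Tg (-0.04), and its other probe sets had 0.07 and -0.07. *Hsp90b1* (Grp94), the Hsp90 of the ER, had 7439 in WT against 8176 in Tg (0.14) and -0.21 on its other probe set. *Hyou1* (Grp170), an Hsp110 of the ER, had 530.0 in WT against 518 in Tg (-0.03). *Hspa13*, a small Hsp70 of microsomes, had 0.02 on its brightest probe set and -0.35, -0.24 and -0.51 on the others. The ER J proteins *Dnajb9*, *Dnajb11*, *Dnajc3* and *Dnajc10* had 0.23, -0.18, -0.03 and 0.19. *Dnajc3* (p58IPK), which also inhibits PERK, had probe sets on both sides of the thresholds, from -0.63 to 0.32.

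On their brightest probe sets, the 6 members with ERSE in the windows shown above were all between the thresholds, against 66.4% of all genes. Of the 76 members that passed, 72.4% lay between them. The 6 ranged from -0.19 for *Ero1b* to 0.14 for *Hsp90b1*. Their median was -0.04, and the 56 passing members with a window but no ERSE had 0.09. On other passing probe sets *Ero1b* had -0.70, and *Dnajc3* had values from -0.63 to 0.32. The 2 members with ERSE-II had 0.17 (*Herpud1*) and -0.18 (*Dnajb11*). Of 15 members listed as UPR targets, all 15 passed, 1 was over 0.3 (*Pdia3*) and 2 were under -0.3 (*Pdia4* and *Edem1*), with a median of -0.03. Their shares were 6.67% and 13.3%, against 16.6% and 16.9% of all genes. The 13 members with a 2-unit heat shock element that passed had a median of 0.11, and the 49 without one had 0.03. Of the 13, 3 were over 0.3 and 2 under -0.3, against 16.6% and 16.9% of all genes. The part of these motifs in the signals was not tested.

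Of the 3 sensors of the UPR, *Atf6* was under -0.3 and the others were near 0. *Ern1* had 569 in both WT and Tg (0.00), and *Eif2ak3* had 680.4 in WT against 727 in Tg (0.09). *Atf6* had 1009 in WT against 782 in Tg (-0.37), with -0.18 and -0.30 on its other probe sets. All 3 were lower in Tg, and the -0.30 lies at the threshold itself. *Xbp1*, the transcription factor whose mRNA IRE1 splices, had 8205 in WT against 9951 in Tg (0.28), and its other probe sets had 0.22, 0.25 and 0.30, so that its 4 readings lay within a narrow range. The arrays do not separate the spliced from the unspliced mRNA here. Plasma cells express *Xbp1* and the ER chaperones strongly. Of 8 plasma cell markers 7 passed on both arrays. Of these 1 was over 0.3 and 2 under -0.3, against 15.4% and 14.6% of all genes above the filter on both arrays. *Pou2af1* had 0.49, *Sdc1* -1.08 and *Prdm1* -0.77. The summed signal of all 8 was 7484 in WT against 7612 in Tg. Most of this sum was *Jchain*, the joining chain of antibodies, with 5308 in WT against 5804 in Tg (0.13).

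Disulfide bonds in the ER are made by the isomerases, which ERO1 oxidases keep oxidised. Of 7 such genes that passed, *Pdia3* was over 0.3 and *Pdia4* under -0.3. *Pdia3* (ERp57), which works on glycoproteins with calnexin and calreticulin, had 2635 in WT against 3543 in Tg (0.43). Its other passing probe set was dim, with 148 in WT against 114 in Tg (-0.38), and went the other way. *Pdia4* (ERp72) had 210.4 in WT against 110.1 in Tg (-0.93), the lowest value of the ER members, and the Tg signal was just above the filter. Its other probe set was below the filter, with 31.6 in WT against 6.40 in Tg. *Pdia5* had 0.20 and *Pdia6* (P5) had 0.03, with 3748 in WT against 3817 in Tg. The oxidase *Ero1a* had 950.0 in WT against 1010 in Tg (0.09) and -0.49 and -0.38 on its other probe sets. *Ero1b* had 646 in WT against 566 in Tg (-0.19) and -0.70 on its other passing probe set. For both oxidases the dimmer probe sets were the lower ones. *Creld2*, an isomerase induced by ER stress, had -0.06.

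Of the other ER factors, *Edem1* was the one past a threshold. *Edem1*, which marks misfolded glycoproteins for degradation, had 2850.1 in WT against 2183 in Tg (-0.38) and -0.31 on its other probe set. *Herpud1*, a membrane protein of ER-associated degradation, had 1991 in WT against 2247 in Tg (0.17) and 0.27 on the other. *Manf*, a secreted stress-induced protein of the ER, had 3123 in WT against 2646 in Tg (-0.24). *Sdf2l1*, a partner of *Dnajb11*, had 209.5 in WT against 188 in Tg (-0.16). *Serpinh1* (Hsp47), the chaperone of collagen, had 11862 in WT against 10251 in Tg (-0.21) and -0.07 on its other probe set. Beside it, the fibroblast markers *Col1a1*, *Col1a2*, *Col5a1* and *Col5a2* had -0.54, -0.12, -0.22 and -0.26, and *Col3a1* had 0.05. Over the 10 fibroblast and progenitor markers that were measured, 1 was over 0.3 (*Pdgfra*) and 1 under -0.3 (*Col1a1*), with a summed signal of 92995 in WT against 93478 in Tg.

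**Figure D2:**
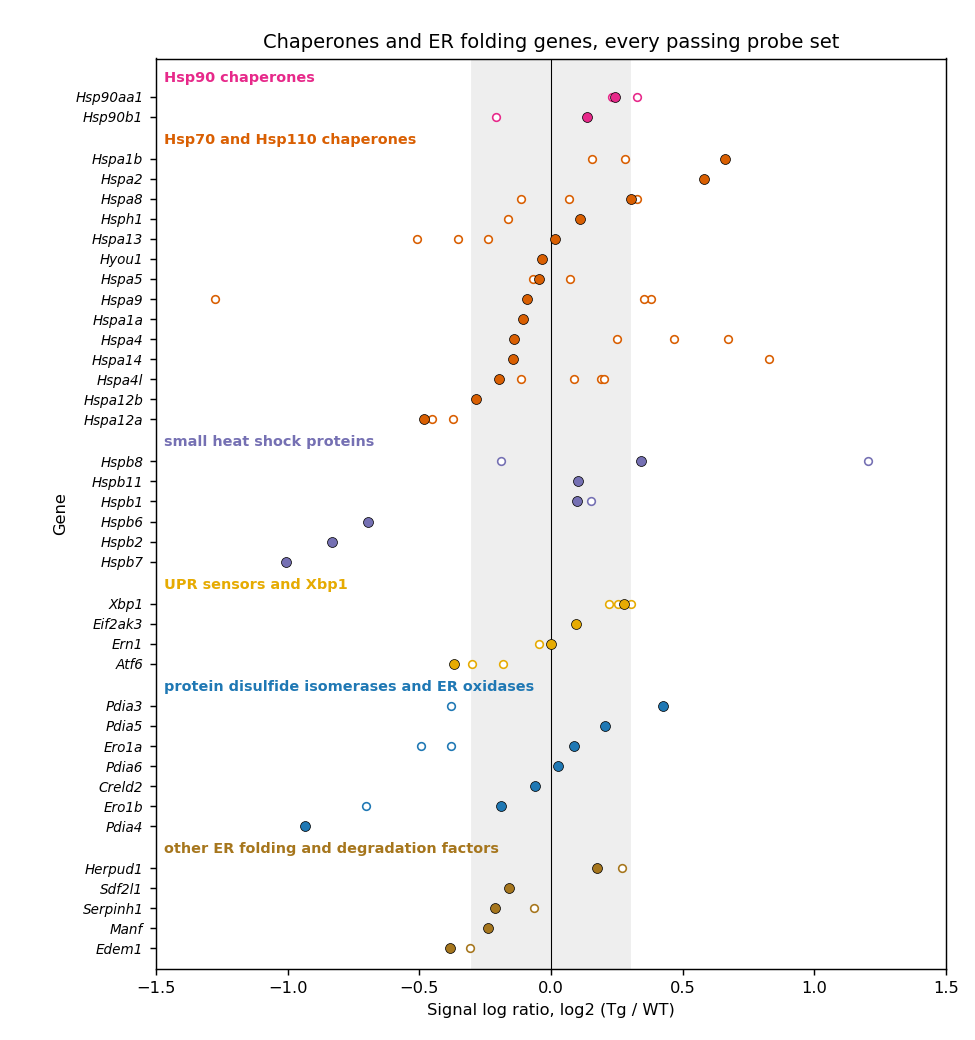
Signal log ratios, log2 (Tg/WT), of the Hsp90, Hsp70 and small heat shock proteins and of the ER folding genes, with each gene on its own line. Filled points are the probe sets with the highest mean signal, open points are the other passing probe sets of the same gene, and the grey band covers -0.3 to 0.3. *Hspb2*, *Hspb6* and *Hspb7* stand to the left of the band, whereas *Hspa5*, *Hyou1* and *Creld2* lie near 0.

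Of the 6 small heat shock proteins that passed, 3 were under -0.3, 50% against 16.9% of all genes. Over 0.3 was 1, 16.7% against 16.6%. The 3 under -0.3 are known from muscle, where *Hspb8*, the one over 0.3, also acts. *Hspb7*, the cardiovascular form, had 248 in WT against 124 in Tg (-1.005). *Hspb2*, which binds the myotonic dystrophy kinase, had 657 in WT against 369 in Tg (-0.83). *Hspb6* (Hsp20) had 1077 in WT against 666 in Tg (-0.69). *Hspb2* and *Hspb6* have 1 probe set each, and the 2 others of *Hspb7* were below the filter, with 73.8 in WT against 26.6 in Tg and 34.4 in WT against 4.70 in Tg. The remaining small heat shock proteins that passed were not lower in Tg: *Hspb1* had 0.10, *Hspb8* had 2566 in WT against 3254 in Tg (0.34), and *Hspb11*, a protein of cilia, had 0.10. The probe sets of *Hspb8*, which works with BAG3 in autophagy of damaged muscle proteins, were spread over -0.19, 0.34 and 1.204. *Bag3* had -0.02. *Cryab*, a small heat shock protein that lies next to *Hspb2* on chromosome 9, had 6454 in WT against 6065 in Tg (-0.09).

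Markers of skeletal and of smooth muscle were read beside *Hspb2*, *Hspb6* and *Hspb7*. Of 14 skeletal muscle markers, 2 were above the filter on both arrays, *Acta1* with 5451 in WT against 5353 in Tg (-0.03) and *Myl1* at -0.06. A further 4 reached it on the WT array alone and so had to be lower in Tg, among them *Pvalb* with 391 in WT against 49.6 in Tg, and nothing is read from their number. The summed signal over all 14 was 8948 in WT against 8087 in Tg. The defining markers *Ckm*, *Myh1*, *Myh2*, *Myh4* and *Actn3* were below the filter on both arrays. Of 10 smooth muscle and pericyte markers 9 passed, all 9 on both arrays. Under -0.3 were 4, 44.4% against 14.6% of all genes above the filter on both arrays. Just over 0.3 was 1, *Des* at 0.30, 11.1% against 15.4%. The summed signal was 43145 in WT against 36857 in Tg. *Synpo2* had -1.002, *Cnn1* -0.76 and *Mylk* -0.46, while *Tagln* had 0.09. The part of these cells in the 3 small heat shock proteins was not tested.

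**Figure D3:**
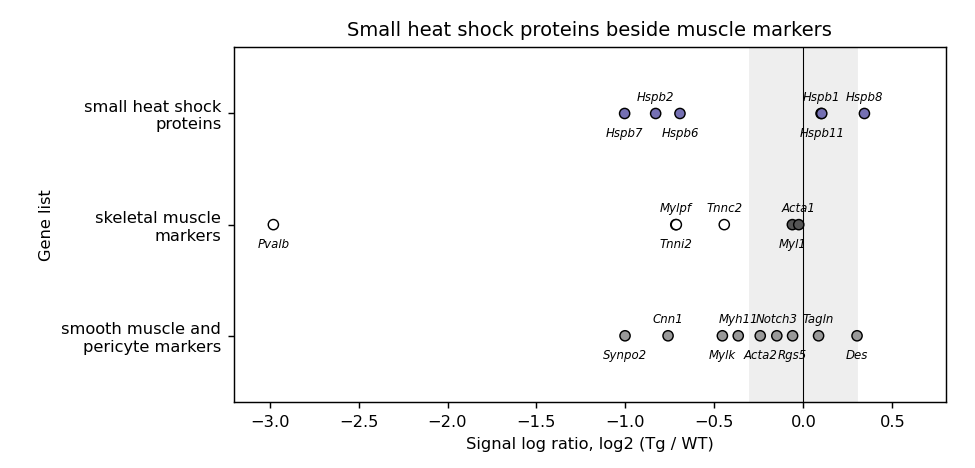
Signal log ratios, log2 (Tg/WT), of the 6 small heat shock proteins that passed the filter and of the muscle markers that passed it, with 1 point per gene. Open points are genes above the filter on the WT array alone, and the grey band covers -0.3 to 0.3. *Hspb7*, *Hspb2* and *Hspb6* lie left of the band, as do *Synpo2*, *Cnn1*, *Mylk*, *Myh11* and the open points, whereas *Acta1* and *Myl1* lie near 0.

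J proteins made up the largest family. Of 44 members 38 passed, 27 were over 0, and the median was 0.11. Over 0.3 were 5, 13.2% against 16.6% of all genes, and under -0.3 were 4, 10.5% against 16.9%. By class, 9 of 10 *Dnajb* genes were over 0, with a median of 0.21 and an interquartile range of 0.11 to 0.25. The 24 *Dnajc* genes had a median of 0.10 and the 4 *Dnaja* genes -0.05. Of all genes 53.2% were over 0. On second-brightest probe sets 3 of 6 *Dnajb* genes were over 0, with a median of -0.05, so that the side of this class rests on the probe sets read. *Dnajb6*, which keeps aggregating proteins in solution, had 3662 in WT against 4380.1 in Tg (0.26), with others of 0.05 and -0.21. *Dnajb9* (ERdj4) had 3710 in WT against 4344 in Tg (0.23) on its only probe set. *Dnajb13*, a protein of sperm flagella and cilia, had 611.5 in WT against 737 in Tg (0.27). *Dnajb2*, a J protein with ubiquitin-binding motifs, had 509 in WT against 671 in Tg (0.40).

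The highest J proteins were dim, and each was past the threshold on 1 probe set only. *Dnajc16*, a J protein of the ER membrane, had 138 in WT against 258 in Tg (0.91), but its other probe set had 140 in WT against 138 in Tg (-0.02). *Dnajc28* had 222 in WT against 403 in Tg (0.86), and -0.13 on the other. *Dnajc27*, which carries a Rab-like GTPase domain, had 185 in WT against 301 in Tg (0.70), and no other probe set that passed. The second readings of *Dnajc16* and *Dnajc28* were thus near 0. *Dnajc12*, which binds the aromatic amino acid hydroxylases, had 529 in WT against 697 in Tg (0.40). *Dnajc15*, of the inner mitochondrial membrane, had 5585 in WT against 6607 in Tg (0.24).

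At the lower end, *Dnajc6* (auxilin), which uncoats clathrin vesicles with Hsp70, had 305 in WT against 214 in Tg (-0.51). *Dnaja4*, a cytosolic partner of Hsp70 with the heat shock element shown above, had 457 in WT against 346 in Tg (-0.40), and -0.75 and -0.64 on its other probe sets. All 3 readings of *Dnaja4* were past the threshold. *Dnajc17* had 708 in WT against 515 in Tg (-0.46), and its other probe set, with 96.9 in WT against 115.5 in Tg, reached the filter on the Tg array alone. *Dnajc25* had 172 in WT against 131 in Tg (-0.39) on its only probe set. *Dnaja3* (Tid1), the partner of mortalin in mitochondria, had 1112 in WT against 1124 in Tg (0.01) and -0.80 on its other passing probe set. The 4 mitochondrial members, *Hspa9*, *Dnaja3*, *Dnajc11* and *Dnajc15*, lay between -0.09 and 0.24. The 29 J proteins that were past neither threshold ranged from -0.18 (*Dnajb11*) to 0.27 (*Dnajb13*). Among them *Dnaja2*, a main partner of Hsp70 in the cytosol, had 6688 in WT against 6177 in Tg (-0.11). Its other probe sets had -0.07, 0.30 and 0.14. *Dnajc8*, a factor of splicing, had 4666 in WT against 4755 in Tg (0.03), and -0.14 on its other probe set. *Dnajc5* (CSPα), which folds proteins of exocytosis, had 0.11 on its brightest probe set. Its other probe sets were all lower in Tg, at -0.03, -0.02, -0.46 and -0.55.

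**Figure D4:**
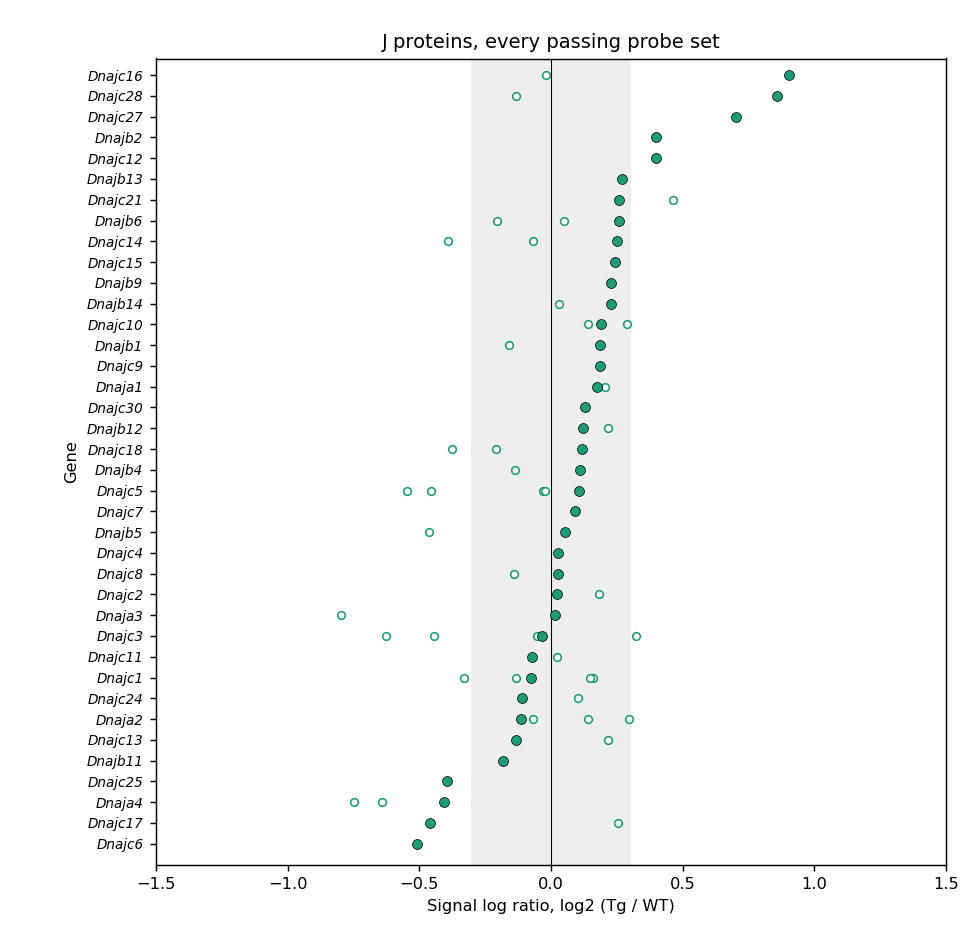
Signal log ratios, log2 (Tg/WT), of the 38 J protein genes that passed the filter, ordered by the probe set with the highest mean signal (filled). Open points are the other passing probe sets of the same gene and the grey band covers -0.3 to 0.3. The open points of *Dnajc16* and *Dnajc28* lie near 0, whereas those of *Dnaja4* lie left of the band with the filled one.

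The heat shock factors were below the filter. *Hsf2* had 62.0 in WT against 44.7 in Tg, *Hsf4* had 63.1 in WT against 80.1 in Tg, and *Hsf5* had 34.6 in WT against 24.1 in Tg. At such signals no change was read from them. The other members below the filter were *Hsf2bp*, *Dnajb3*, *Dnajb7*, *Dnajb8*, *Dnajc22*, *Dnajc5b*, *Dnajc5g*, *Hspa1l*, *Hspb3*, *Hspb9* and *Pdia2*, with signals of at most 84.6 (*Dnajc5b* in WT). Several of these, such as *Dnajb3*, *Dnajb8*, *Hspa1l* and *Hspb9*, are best known from testis, and *Pdia2* from pancreas.

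**Figure D5:**
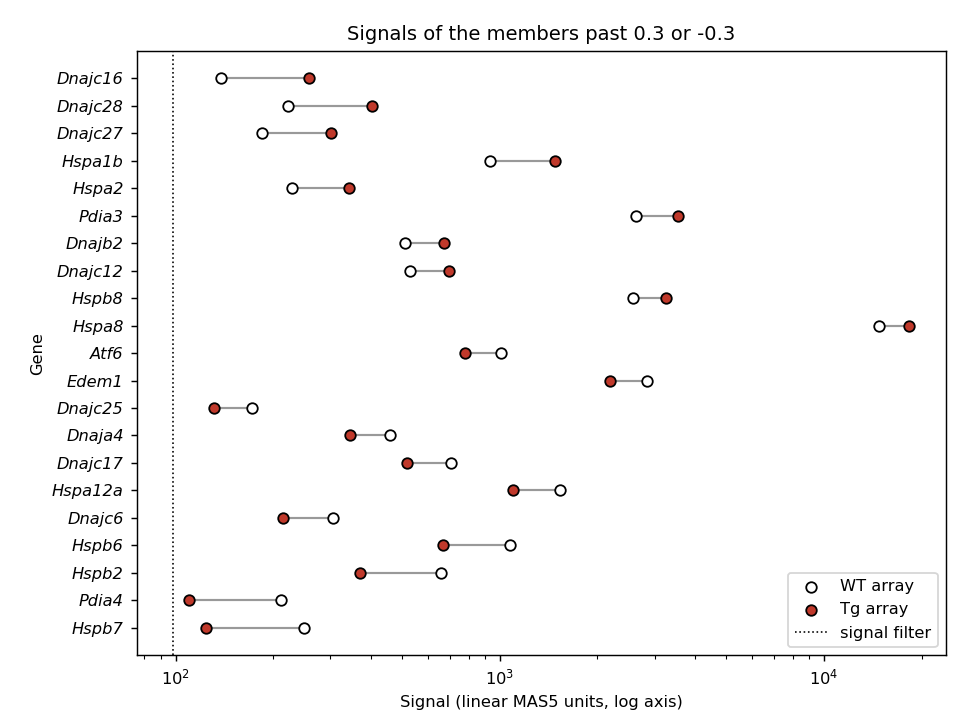
Signals on the WT array (open) and the Tg array (red) of the 21 members past 0.3 or -0.3, on a logarithmic axis. The dotted line is the filter at 98.2. *Pdia4* and *Hspb7* have Tg signals of 110.1 and 124 close to it, and *Hspa8* has the highest signals at 14806 and 18291.

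Genes of the same pathways outside the families also had medians near 0. For the counts below, 16.6% of all genes were over 0.3 and 16.9% under -0.3. Of 25 genes of ER lectins, other isomerases, the translocon and ER-associated degradation, all passed, 1 was over 0.3 and 2 were under -0.3, with a median of 0.01. *Derl1*, a channel of degradation, had 8048 in WT against 10990.2 in Tg (0.45), *Edem2*, a relative of *Edem1*, had 520.2 in WT against 332 in Tg (-0.65), and *Erp29* had 1836 in WT against 1387 in Tg (-0.40). The lectins *Canx* and *Calr*, which hold clients for *Pdia3*, had 0.01 and -0.02. Of 20 co-chaperones and other heat-inducible genes 19 were measured, 2 were over 0.3, 2 under -0.3 and the median was 0.003. *Hspe1* and *Hspd1*, the chaperonin of mitochondria, had 0.35 and 0.25, *Unc45a* had 0.59, *Stip1*, which links Hsp70 with Hsp90, had 1011 in WT against 764 in Tg (-0.41), and *Bag2* had -0.34. Of 8 targets of the PERK branch, *Asns*, asparagine synthetase, was over 0.3 with 1909 in WT against 3218 in Tg (0.75) and *Atf3* was under -0.3 with 842 in WT against 397 in Tg (-1.09). *Ddit3* (CHOP) had -0.26 and *Atf4* 0.10, and the median was 0.03.

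Markers of the remaining cell types were read beside these values. Of 14 macrophage markers all passed, 7 were under -0.3, against 16.9% of all genes, and 0 over 0.3, against 16.6%. Their summed signal was 70396 in WT and 56492 in Tg. The part of this difference in the 11 members under -0.3 was not tested. Of 8 endothelial markers, 1 was under -0.3 (*Tie1*, -0.72), 12.5% against 16.9% of all genes. The other 7 lay between the thresholds, 87.5% against 66.4%. Over 0 was 1 of the 8, against 53.2% of all genes. The median was -0.08, beside the -0.28 of *Hspa12b*. Of 9 markers of ciliated epithelium 1 was above the filter on both arrays, *Cfap126* at -0.31, and the defining factor *Foxj1* was below the filter on both arrays. *Hspb11* and *Dnajb13*, which are known from cilia, had 0.10 and 0.27. Brown adipocyte markers stood apart from all of these, with 7 of 7 that were above the filter on both arrays over 1 and a median of 1.97, and the uncoupling protein *Ucp1* had 115 in WT against 7255 in Tg. None of the 76 members that passed was over 1.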

How the data were processed

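Signals came from 2 Affymetrix mouse genome arrays, 1 per genotype, each with pooled RNA of 3 mice. The deposited intensity values are those of GeneChip Operating Software ver1.4, as the methods state, and the submitters' processing notes name MAS5. Each array is scaled as a whole, with a mean of 500.0 after trimming of 2% at either end. Present calls were not used here. All 45101 probe sets were read, and the 64 control probe sets were left out. Gene names came from the platform annotation, in which 34945 probe sets have 1 symbol, 932 several and 9160 none listed. Members had 213 probe sets, of which 161 passed the filter, and 31 members had 1 probe set. Signal log ratios were computed without normalization or pseudocount. The number of arrays limits the precision.

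The members and lists were chosen with earlier results of these data known. Named were all members past 1 or -1, and up to 8 past 0.3 or -0.3 and the brightest in each role. So were the ER lumen genes, the sensors, the heat shock factors, the Hsp90 genes and those with probe sets on both sides. For each other list the plan was up to 4 genes with the largest values, and fewer for cell type markers. Not all of these genes are named, and no macrophage marker is. Genes named beyond this were chosen after their values were seen. Coordinates are those of GRCm38.p6. The code was tested on simulated data with known shifts. Computations ran in Python 3.11.15, with matplotlib 3.10.9, numpy 2.4.6, pandas 2.3.3 and statsmodels 0.14.6.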

Additional observations from a re-analysis of the deposited data

How the results depend on the processing

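With 1 array per genotype, no replicate could be left out and no test run. Tried were quantile normalization, median centring, loess, a pseudocount of 25.1, a floor of 56.9, no filter, a stricter filter at 470.5, and for the probe sets of a gene their median, the second-brightest, or the brightest without a suffix for shared transcripts. No spread between mice can be had, and the SD of 0.32 between probe sets of a gene, on the same pools, only served to choose which values are given here. Of the 11 members past a threshold with more than 1 passing probe set, 3 stayed past it the same way under every planned setting that gave a value, *Hspa12a*, *Dnaja4* and *Edem1*. The other 10 have 1 passing probe set, so that the choice of probe set could not be tried on them. Without the filter, 14 of 90 members were over 0.3 and 19 under -0.3, against 24.6% and 25% of all genes. With the stricter filter, 6 of 59 were over 0.3 and 6 under -0.3, against 14.1% and 11.5%, and the median was 0.089. On second-brightest probe sets, 6 of 48 were over 0.3 and 10 under -0.3, against 17.0% and 25.8%, and the medians were -0.26 for 10 ER lumen genes and 0.074 for 7 UPR targets. Without suffixes, the median of 65 members was 0.089. With equal median signals, added once the values were known, 19 of 76 were over 0.3, against 24.9% of all genes, and the medians were 0.12 for the members, 0.11 for all genes, and 0.049 for both the ER lumen genes and the UPR targets. The sign turned in 28 of 48 members on second-brightest probe sets, and in 3 of 65 without suffixes. Of the members past a threshold it turned on second-brightest probe sets for *Dnajc16* (-0.017), *Dnajc17* (0.25), *Dnajc28* (-0.13), *Hspb8* (-0.19) and *Pdia3* (-0.38), and without suffixes for *Hspa8* (-0.11). The causes were not tested.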
